A study of Mus musculus with 18 samples.

Results

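The *Dlk1*-*Meg3* cluster is an imprinted domain of mouse chromosome 12, and its 6 genes *Dlk1*, *Rtl1*, *Dio3*, *Meg3*, *Rian* and *Mirg* were followed here in every RNA-seq library of the study. They were taken by gene symbol, whatever their values, and all 6 were found among the 24346 symbols of the tables. The study asked what loss of *Kdm6a*, the X-linked gene of an H3K27 demethylase, does to gene expression when female mouse embryonic stem (ES) cells differentiate. *Tsix*-stop ES cells carry 1 set of chromosomes from strain-129 and 1 from *Mus castaneus* (*cast*), and every library of this line, wt included, also carries a transcriptional stop in *Tsix* on the strain-129 X chromosome. The *Tsix*-stop libraries are 2 of wt, 2 of *Kdm6a* KO and 1 of a CRISPR control on each of D0 (undifferentiated) and D15 (embryoid bodies plated after LIF removal). According to the methods the KO libraries came from 2 clones, homozygous for a deletion that runs from exon 2 to exon 4 of *Kdm6a*. The labels do not say which library is which clone, so genotype and clone cannot be told apart. The CRISPR control was 1 transfected clone in which the methods found no edit, and its tables were deposited under names that call it a KO. The labels' grouping was used, and this clone is shown apart. E8 ES cells carry 1 set of chromosomes from C57BL/6J (BL6) and 1 from *cast*. There were 2 wt and 2 KO libraries of E8 on each of D7 and D15, and the KO is 1 clone with a homozygous deletion of the *Kdm6a* promoter. The methods describe RNA-seq of E8 on earlier days and from 1 culture of each genotype, so the days are given as the labels have them, and the replicates of E8 may be technical. All cells were kept on inactivated mouse embryonic fibroblasts before differentiation, and no ages apply.

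In mice the paternal chromosome of this domain expresses 3 protein-coding genes. They are *Dlk1*, a transmembrane protein related to Notch ligands that keeps progenitors undifferentiated, *Rtl1*, a protein derived from a retrotransposon that placenta and muscle need, and *Dio3*, the deiodinase that inactivates thyroid hormone. The maternal chromosome expresses the long non-coding RNAs *Meg3* (also known as *Gtl2*), *Rian*, which hosts C/D box small nucleolar RNAs, and *Mirg*, which hosts microRNAs. A region between *Dlk1* and *Meg3*, methylated on the paternal chromosome, sets this pattern, and loss of *Meg3* expression is a known defect of cultured ES cells. On GRCm38, the build of mm10, *Dlk1* lies at chr12:109452823-109463336, *Meg3* at chr12:109541001-109571726, *Rian* at chr12:109603940-109661716, *Mirg* at chr12:109729764-109749460 and *Dio3* at chr12:110279068-110281097, all on the plus strand. *Rtl1* lies on the minus strand at chr12:109589193-109600330, opposite the maternal transcripts.

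*Dlk1*, *Meg3* and *Dio3* are shown as the members the results turn on, namely the first coding gene, the first non-coding RNA and the gene that went down with differentiation. The 250 bases before the start of each in RefSeq, which for *Meg3* and *Dio3* is not the start given above, are shown (GRCm38.p6, plus strand), with each CpG, the site of DNA methylation, in capitals.
Dlk1, chr12:109452573-109452822: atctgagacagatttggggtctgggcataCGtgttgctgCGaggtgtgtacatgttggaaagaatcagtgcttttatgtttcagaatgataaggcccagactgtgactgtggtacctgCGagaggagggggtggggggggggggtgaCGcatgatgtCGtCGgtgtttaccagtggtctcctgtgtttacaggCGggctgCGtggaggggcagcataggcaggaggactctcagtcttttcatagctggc
Meg3, chr12:109540746-109540995: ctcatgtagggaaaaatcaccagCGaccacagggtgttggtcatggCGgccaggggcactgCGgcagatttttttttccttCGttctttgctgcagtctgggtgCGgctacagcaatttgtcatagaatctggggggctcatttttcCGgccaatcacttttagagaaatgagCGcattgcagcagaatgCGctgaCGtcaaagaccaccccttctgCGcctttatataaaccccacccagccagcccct
Dio3, chr12:110278980-110279229: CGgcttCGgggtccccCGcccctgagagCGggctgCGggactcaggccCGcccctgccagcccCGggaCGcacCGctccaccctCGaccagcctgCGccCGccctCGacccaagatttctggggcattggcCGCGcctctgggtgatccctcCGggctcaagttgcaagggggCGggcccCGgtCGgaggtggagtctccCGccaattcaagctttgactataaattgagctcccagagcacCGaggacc
The *Dlk1* window holds 8 CpG, that of *Meg3* 10 and that of *Dio3* 21, beside a median of 6 in 27025 promoter windows of the same length. On either strand, the *Meg3* window holds 1 match to TGCCGC, the hexamer bound by the imprint factor ZFP57, which 8.59% of all windows have. It also holds 1 full cyclic AMP response element, TGACGTCA (1.62% of windows), which contains the shorter form TGACGT, and 2 matches to the TATA box letters TATAAA (12.97% of windows), of which the *Dio3* window holds 1. A match is a description of letters and not a binding site.

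The maternal transcripts also carry a large cluster of microRNAs, with 114 mature microRNAs from 61 genes between *Dlk1* and *Dio3* in RefSeq. Of these, 13 from 7 genes lie inside *Rtl1* on the opposite strand, where they pair perfectly with its transcript. Of the latter, 5 are shown with the seed (bases 2 to 8), which picks other targets, in capitals.
miR-431-5p: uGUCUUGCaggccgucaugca
miR-433-3p: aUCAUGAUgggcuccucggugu
miR-127-3p: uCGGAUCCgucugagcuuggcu
miR-434-3p: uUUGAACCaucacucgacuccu
miR-136-5p: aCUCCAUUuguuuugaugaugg
No seed is shared among these 5. The libraries were made from polyadenylated RNA with a kit that does not mark strand, so reads of *Rtl1* and of the transcript opposite it cannot be told apart, and *Rtl1* is treated as uncertain below. The tables hold 67 further rows between *Begain* and *Ppp2r5c*, the genes that border the domain, and 54 of them, mostly microRNAs, were at 0 in every library. The row 6430411K18Rik covers the same interval as *Rtl1* in RefSeq and held 0.848 to 75.4 counts in *Tsix*-stop, so that reads of *Rtl1* may have been split between the rows.

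The *Tsix*-stop tables give estimated counts, of which the count on the strain-129 genome was used as the level, and libraries held 51091152 to 68796179 counts and 9210225 to 12095548 reads with an informative SNP. CPM are counts scaled to a common library size with TMM. E8 tables give only TPM, so their depth is unknown. *Kdm6a* itself ranged from 109 to 208 CPM over the wt libraries. In KO replicate 1 it had 129.4 CPM at D0 and 93.3 at D15, and in KO replicate 2 it had 48.4 and 28.0. The CRISPR control had 128 at D0 and 93.5 at D15, close to KO replicate 1 on both days. Since the deletion removes only part of the gene, the row of *Kdm6a* does not check the labels in *Tsix*-stop. In E8 it had 46.7 to 47.8 TPM in wt and 0.00578 to 0.0319 in KO. Of the markers of undifferentiated cells, *Pou5f1* stayed at 1625 TPM or more in the E8 wt libraries labelled D7 and D15. With 2 libraries against 2, an exact permutation test cannot go below p = 0.333, so tests are those of models fitted across all genes. To be called, a gene needed 2-fold or more and an adjusted p of 0.1 or less (Benjamini-Hochberg).

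*Dlk1* was low in undifferentiated *Tsix*-stop cells and rose steeply only in wt embryoid bodies. It had 6.52 and 4.44 CPM in wt at D0 and 166 and 199 at D15. In KO it had 3.48 and 2.96 CPM at D0 and 9.39 and 5.69 at D15. The CRISPR control stood at 8.62 and 16.2 CPM on these days. Both wt libraries at D15 thus stood far above every other library, and the CRISPR control at D15 lay between KO and wt, much nearer to KO. *Dlk1* rose 33.2-fold in wt (log2 5.05 ± 0.29 SE, n = 2 against 2, edgeR adjusted p = 3.89e-06) and 2.35-fold in KO (log2 1.23 ± 0.27, adjusted p = 0.00418). At D15 it was 24.1-fold lower in KO than in wt (log2 -4.59 ± 0.28, adjusted p = 6.3e-05). At D0 the difference of -0.77 ± 0.27 (log2, adjusted p = 0.0954) did not reach 2-fold. Without KO replicate 1 of D15 the rise in KO was 0.82 (log2) and was no longer called.

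*Meg3*, the first of the non-coding RNAs, was already abundant at D0 and had the same order of groups at D15. It had 176 and 155 CPM in wt at D0 and 1748 and 1340 at D15. In KO it had 123 and 121 CPM at D0 and 195 and 211 at D15. The CRISPR control had 123 CPM at D0, level with KO, and 311 at D15, above KO and far below wt. *Meg3* rose 9.33-fold in wt (log2 3.22 ± 0.16, edgeR adjusted p = 2.34e-06), while the change of 1.66-fold in KO (log2 0.73 ± 0.14, adjusted p = 0.00266) did not reach 2-fold. It was 7.62-fold lower in KO than in wt at D15 (log2 -2.93 ± 0.15, adjusted p = 3.25e-05). At D0 the difference was -0.44 ± 0.14 (log2, adjusted p = 0.0818), with no overlap between wt and KO libraries.

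*Rian* and *Mirg*, which follow *Meg3* on the same strand, differed in the same order with smaller steps. *Rian* had 197 and 171 CPM in wt at D0, 508 and 399 in wt at D15, 146 and 140 in KO at D0 and 141 and 146 in KO at D15. *Mirg* had 16.2 and 12.3 CPM in wt at D0, 29.9 and 31.1 in wt at D15, 10.7 and 12.2 in KO at D0 and 10.3 and 13.5 in KO at D15. The CRISPR control had 150 and 217 CPM of *Rian* and 15.2 and 18.7 CPM of *Mirg* at D0 and D15. For both genes the wt libraries at D15 were above all others, and the KO libraries of the 2 days overlapped. *Rian* rose 2.46-fold in wt (log2 1.30 ± 0.14, edgeR adjusted p = 5.41e-05) and had a log2 change of 0.01 ± 0.14 in KO (adjusted p = 0.976). *Mirg* rose 2.14-fold in wt (log2 1.09 ± 0.20, adjusted p = 0.00109) and had a log2 change of 0.05 ± 0.20 in KO (adjusted p = 0.841). At D15 *Rian* was 3.16-fold lower in KO (log2 -1.66 ± 0.14, adjusted p = 0.000208) and *Mirg* 2.56-fold lower (log2 -1.36 ± 0.20, adjusted p = 0.00184). Without wt replicate 2 of D0 the rise of *Mirg* in wt was 0.91 (log2) and was no longer called.

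*Dio3*, at the far end of the domain, went the other way with differentiation. It had 92.2 and 126 CPM in wt at D0 and 10.4 and 11.5 at D15, and in KO it had 37.3 and 24.2 CPM at D0 and 3.21 and 2.96 at D15. The CRISPR control had 36.3 CPM at D0, inside the KO range, and 2.44 at D15, below both KO libraries. Every KO and control library was below every wt library of its day. *Dio3* fell by 3.32 on the log2 scale in wt (± 0.24 SE, edgeR adjusted p = 7.93e-06) and by the same 3.32 in KO (± 0.25, adjusted p = 2.06e-05). KO was 3.54-fold lower than wt at D0 (log2 -1.82 ± 0.22, adjusted p = 0.00221) and at D15 (log2 -1.82 ± 0.24, adjusted p = 0.00112). *Dio3os*, the antisense gene next to *Dio3*, had 168 and 132 counts in wt at D0, 114 and 120 in wt at D15, 79 and 104 in KO at D0, 42 and 30 in KO at D15, and for the CRISPR control 74 and 40. As for *Dio3*, its wt libraries were above the KO and control libraries of the same day.

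*Rtl1* stayed near the floor of the test. It had 1.53 and 1.67 CPM in wt at D0 and 4.38 and 2.80 at D15, 0.994 and 1.61 in KO at D0, 0.920 and 1.65 in KO at D15, and for the CRISPR control 1.78 and 1.58. Only the wt libraries at D15 were set apart. The rise in wt was 1.16 ± 0.40 (log2, edgeR adjusted p = 0.0271) and the difference of KO from wt at D15 -1.48 ± 0.40 (log2, adjusted p = 0.0228). The latter was -1.11 without wt replicate 1 of D15 and lost the call, as it did without KO replicate 1 of D15.

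**Figure D1:**
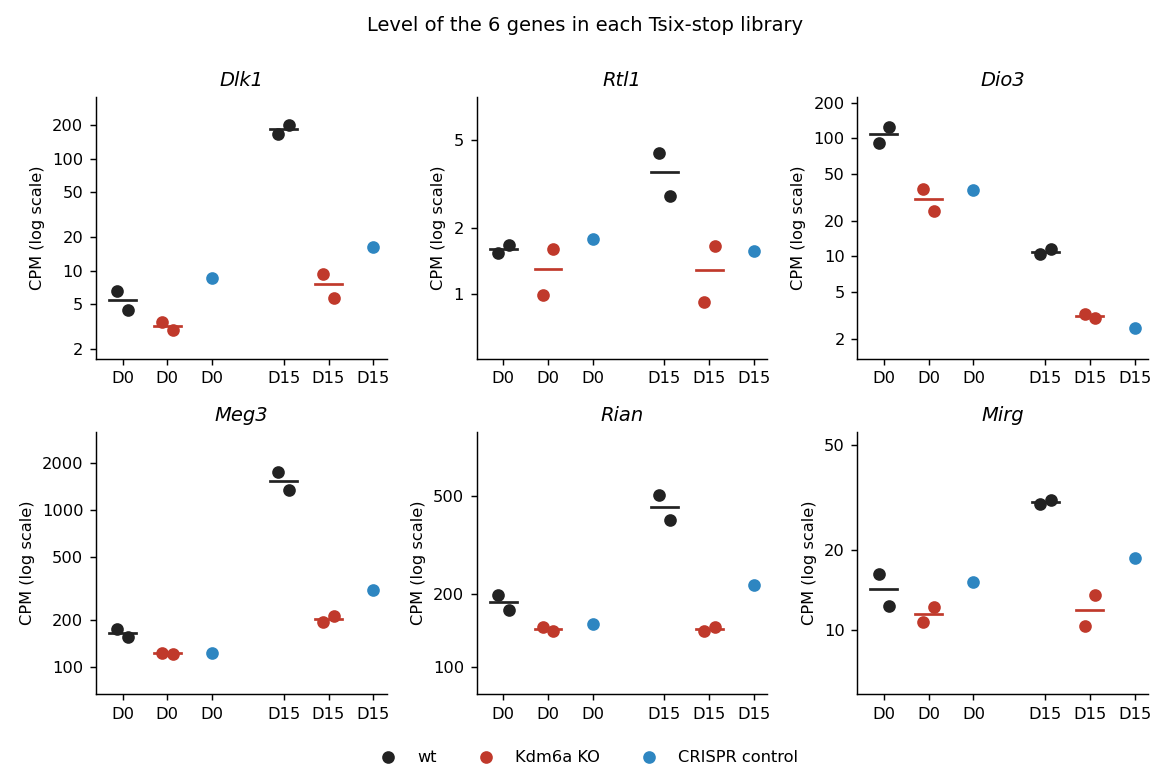
Level of each of the 6 genes in CPM (log scale) in each *Tsix*-stop library, with points for libraries, bars for the mean of 2 libraries, and D0 and D15 on the horizontal axis. At D15 *Dlk1* was at 166 and 199 CPM in wt and at most 16.2 in the KO and control libraries, while *Dio3* was lower at D15 than at D0 in every group.

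All 6 members were lower in KO than in wt at D15 by the test, where 10.9% of the 13121 genes tested were called lower and 14.8% were called in either direction. At D0 1 of 6, *Dio3*, was called, beside 8.03% of all genes. Between days, 6 of 6 were called in wt (38.0% of all genes) and 2 of 6 in KO (27.6%). The size of the KO difference itself changed between D0 and D15 for 4 of 6 members, *Dlk1*, *Meg3*, *Rian* and *Mirg*, where 17.1% of all genes passed this test of the interaction. The interaction of *Dlk1* was -3.82 ± 0.37 (log2, edgeR adjusted p = 0.000728) and that of *Meg3* -2.49 ± 0.21 (adjusted p = 0.000453). For *Dio3*, with a KO difference of -1.82 on both days, it was 0.00093 (adjusted p = 1). When the CRISPR control was counted as a wt library, 4 of 6 members were called at D15, 0 of 6 at D0 and 0 of 6 for the interaction (edgeR), where 1104, 17 and 546 of all genes were called. Of these 6, 1 at D0 and 4 for the interaction had an unadjusted p under 0.05.

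Members of the domain differ in length, and per kilobase of exon their order changed with differentiation. In wt at D0 *Dio3* was highest, with 148 and 213 TPM, before *Rian* with 35.3 and 32.3 and *Meg3* with 31.8 and 29.5. The ranges of *Rian* and *Meg3* lay next to each other there. *Mirg* followed with 7.27 and 5.80 TPM, *Dlk1* with 3.76 and 2.70 and *Rtl1* with 0.788 and 0.906. In wt at D15 *Meg3* was highest, with 376 and 278 TPM, before *Dlk1* with 114 and 132, *Rian* with 108 and 81.9, *Dio3* with 19.9 and 21.2, *Mirg* with 16.0 in both and *Rtl1* with 2.68 and 1.65. The ranges of *Dlk1* and *Rian* did not overlap in the 2 libraries, and each pair of neighbours kept its order in both.

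Reads with SNPs tell which chromosome the members were transcribed from, and they are read against the rest of chromosome 12. In *Tsix*-stop wt the median gene of chromosome 12 had 35.4% to 39.0% of its SNP reads from strain-129, in KO 53.0% to 58.6% and in the CRISPR control 34.9% to 38.3%, while the median of the other autosomes lay between 50.1% and 51.5% in all libraries. Some single autosomes departed from this median too (means of 2 libraries). Chromosome 6 was at 59.6% at D0 and 60.3% at D15 in KO, against 53.4% and 48.6% in wt. In wt, chromosome 8 was at 44.8% at D0 and 47.2% at D15, and chromosome 11 at 45.6% at D15. The shift of chromosome 12 ran along the chromosome, as windows of 10 Mb with at least 20 genes were at 33.1% to 41.3% in wt and 49.8% to 60.3% in KO. The median level of chromosome 12 genes was lower in KO by 0.15 at D0 and 0.13 at D15 (log2 -0.15 and -0.13), against a median near 0 elsewhere. With this median subtracted, 1 of 6 members was called at D0 and 6 of 6 at D15, as without it. The methods describe this line as an F1 hybrid and call its strain-129 X chromosome the maternal one, which would make its strain-129 chromosome 12 maternal too. The labels do not give the parent of the chromosomes 12, and the names maternal and paternal used above for these genes are those known from mice.

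*Meg3*, *Rian* and *Mirg* were read mainly from *cast* in every library. If *cast* is the paternal side on chromosome 12 as on X, these shares go against the maternal expression known for the 3 genes. The high strain-129 share of *Dlk1* in wt at D15, given below, would then go against the paternal expression known for *Dlk1*. The reason was not tested in either case. The strain-129 share of *Meg3* was 8.66% (95% Wilson interval 7.55 to 9.91) and 10.5% (9.07 to 12.1) in wt at D0, and 26.3% (25.6 to 26.9) and 26.9% (26.2 to 27.7) in wt at D15. In KO it was 14.01% and 11.5% at D0 and 30.3% and 31.0% at D15, and in the CRISPR control 6.54% and 22.7%. The share was thus below that of chromosome 12 in every library, and higher at D15 than at D0 in each genotype. *Rian* was at 10.9% in both wt libraries at D0 and 26.8% and 27.1% at D15, and *Mirg* at 10.1% and 11.2%, then 25.7% and 23.9%. Both thus stood close to *Meg3* on each day. The log2 ratio of strain-129 to *cast* reads rose from D0 to D15 in wt by 1.79 ± 0.09 for *Meg3*, 1.60 ± 0.09 for *Rian* and 1.49 ± 0.20 for *Mirg* (edgeR adjusted p = 3.66e-12, 8.5e-10 and 5.13e-06), against a median of 0.23 for chromosome 12.

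*Dlk1* changed its main chromosome. In wt it had 19.3% (12.2 to 29.0) and 18.9% (10.6 to 31.4) of 83 and 53 SNP reads from strain-129 at D0, and 85.0% (83.5 to 86.4) and 81.9% (80.3 to 83.4) at D15. In KO it had 58.2% (45.0 to 70.3) and 34.1% (21.9 to 48.9) at D0 and 64.5% (55.6 to 72.4) and 57.1% (44.1 to 69.2) at D15. The CRISPR control had 21 of its 105 reads from strain-129 at D0 (interval 13.5% to 28.6%), level with wt, and 60.4% (53.8 to 66.6) at D15, inside the KO range. The strain-129 to *cast* ratio rose by 4.41 ± 0.32 (log2) in wt (edgeR adjusted p = 4.94e-10). In KO at D15 the ratio was lower than in wt by 1.63 (log2 -1.63 ± 0.29, adjusted p = 0.000236), although chromosome 12 as a whole had moved the other way by 0.80. At D0 the ratio was higher in KO by 1.92 ± 0.46 (adjusted p = 0.00651), of which 0.72 remained and was not called after the shift of chromosome 12 was subtracted. Without KO replicate 1 of D0 the value was 1.12 and was not called, and the KO libraries' intervals of 45.0 to 70.3 and 21.9 to 48.9 overlapped only in part.

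In allele levels, the rise of *Dlk1* in wt came from both chromosomes and far more from strain-129, as strain-129 *Dlk1* went from 1.26 and 0.838 CPM to 141 and 163, and *cast* *Dlk1* from 5.26 and 3.60 to 24.8 and 35.9. In KO at D15 strain-129 *Dlk1* was at 6.05 and 3.25 CPM and *cast* *Dlk1* at 3.34 and 2.44. Both alleles of *Dlk1* were therefore lower in both KO libraries than in either wt library. For *Meg3* the *cast* level went from 161 and 139 CPM to 1289 and 979 in wt, and was 136 and 146 in KO at D15. The strain-129 level of *Meg3* went from 15.2 and 16.3 to 459 and 361 CPM in wt, and was 58.9 and 65.3 in KO at D15. The difference between KO and wt at D15 was seen on both alleles of *Meg3* too.

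*Dio3* shared the low strain-129 share at D0 and lost most of its *cast* reads at D15. Its strain-129 share was 5.12% and 6.64% in wt and 7.58% and 8.97% in KO at D0, and 43.0% (32.7 to 54.0) and 31.6% (21.0 to 44.5) in wt and 35.3% (17.3 to 58.7) and 29.4% (13.3 to 53.1) in KO at D15, where only 17 to 79 SNP reads were left. The *cast* level of *Dio3* was 87.4 and 117 CPM in wt at D0 and 5.93 and 7.84 at D15, while the strain-129 level was 4.72 and 8.35 CPM and then 4.48 and 3.62. In wt the fall of *Dio3* was thus on the *cast* allele, while the strain-129 levels of the 2 days lay next to each other. In KO the *cast* level went from 34.5 and 22.1 to 2.08 and 2.09 CPM and the strain-129 level from 2.83 and 2.17 to 1.13 and 0.872. *Rtl1* had 3 to 16 SNP reads in a library and gives no share.

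**Figure D2:**
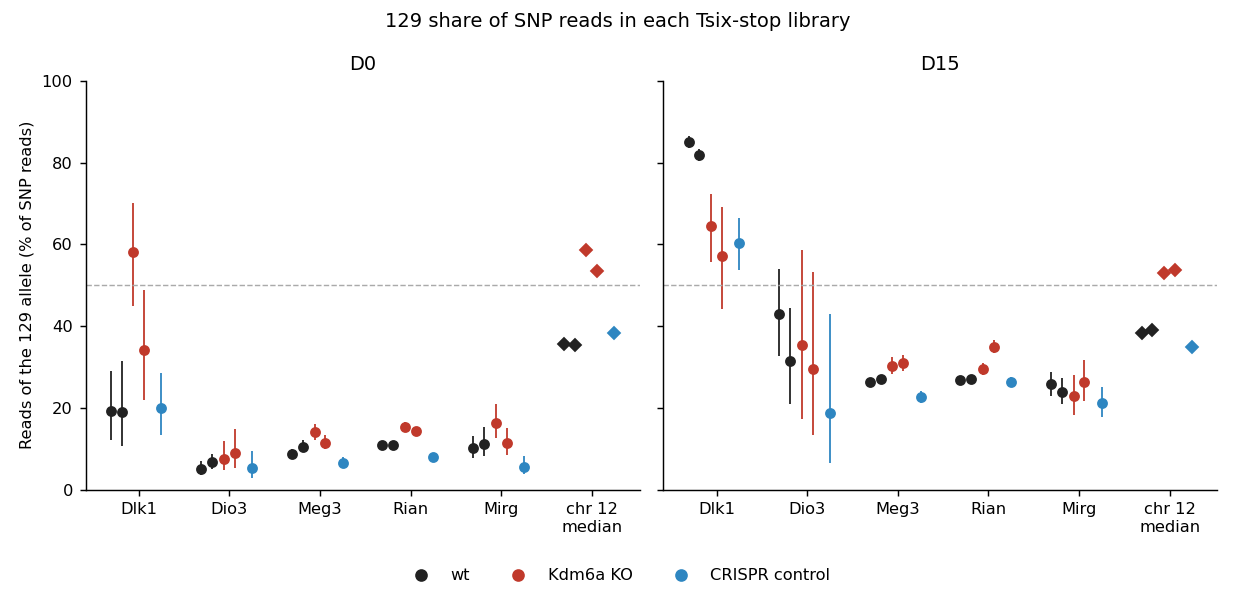
Share of SNP reads from strain-129 (percent) for 5 members and for the median gene of chromosome 12 (diamonds) in each *Tsix*-stop library at D0 and D15, with 95% Wilson intervals that cover counting error only and a dashed line at equal shares. *Meg3*, *Rian* and *Mirg* lay below chromosome 12 in every library, and *Dlk1* went from 19.3% and 18.9% to 85.0% and 81.9% in wt.

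Between KO and wt, the ratio of alleles was called for 1 of 5 members with enough SNP reads at D0 (5.32% of the 12299 genes tested) and 1 of 5 at D15 (4.97%), *Dlk1* on both days. Between days it was called for 5 of 5 in wt (9.67% of genes) and for 4 of 5 in KO (5.86%), all but *Dlk1*, whose value in KO was 0.86 ± 0.41 (log2, edgeR adjusted p = 0.203). For *Meg3*, *Rian*, *Mirg* and *Dio3* the ratio moved toward strain-129 in KO at D0 by 0.42 to 0.51, less than the median gene of chromosome 12, which moved by 1.20.

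Of the 20 genes that flank the domain, 8 before it and 12 behind it, none that was tested was called between KO and wt in *Tsix*-stop. Of the 18 flanking genes tested in *Tsix*-stop, from *Evl* and *Yy1* on one side to *Ppp2r5c* and *Hsp90aa1* on the other, 0 were called between KO and wt at D0 or at D15 by edgeR and 0 by DESeq2, and 1 at D0 and 4 at D15 had an unadjusted p under 0.05. Over all genes edgeR called 8.03% at D0 and 14.8% at D15. The flanking genes had medians of -0.18 at D0 and -0.31 at D15 before the domain and -0.07 and 0.10 behind it (log2). The median over all genes was -0.0047 and 0.0086. *Begain*, the nearest gene before *Dlk1*, had a log2 difference of -0.35 ± 0.33 at D15, and *Ppp2r5c*, the nearest behind *Dio3*, of 0.15 ± 0.20. In the allele ratio they moved toward strain-129 with the chromosome, where those before the domain had a median of 1.16 and those behind it of 1.32 in KO at D0. Between days edgeR called 4 of the 18 in wt (*Begain*, *Wars*, *Amn* and *Hsp90aa1*) and 2 in KO (*Begain* and *Amn*), and 1, *Rcor1*, for the interaction. The shares of all genes called there were 38.0%, 27.6% and 17.1%. In E8 1 of 19, *Amn*, which is also among the endoderm markers below, was called higher in KO on both days. Of all E8 genes 17.5% were called at D7 and 10.7% at D15. The difference between members and flanking genes as groups was not tested.

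E8 cells gave another picture of *Dlk1*. It had 5.30 and 4.11 TPM in wt at D7 and 4.21 and 4.82 at D15, but 17.5 and 18.1 in KO at D7 and 19.8 and 19.7 at D15. Each KO library was above each wt library, the reverse of *Tsix*-stop. On the log2(TPM + 1) scale, which understates changes of low genes, *Dlk1* was higher in KO by 1.73 ± 0.10 at D7 (limma adjusted p = 1.98e-06) and by 1.91 ± 0.10 at D15 (adjusted p = 2.04e-06). These SE rest on replicates that may be technical and then leave out the spread between cultures. The TPM of each allele had been scaled separately, and after rescaling to equal alleles on the median autosomal gene, BL6 made up 20.9% to 39.9% of *Dlk1* in wt and 86.7% to 87.9% in KO. The BL6 allele had 1.01 to 2.11 TPM in wt and 15.3 to 17.2 in KO, while the *cast* allele had 2.92 to 3.81 in wt and 2.12 to 2.62 in KO. The higher level of *Dlk1* in KO was thus on the BL6 allele. The median gene of chromosome 12 also had more from BL6 in KO, with 66.5% to 67.2% against 38.8% to 39.7% in wt. The part of this chromosome shift in the share of *Dlk1* was not tested.

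The non-coding RNAs *Meg3*, *Rian* and *Mirg* were lower in E8 KO. *Meg3* had 208 and 195 TPM in wt at D7 and 219 and 246 at D15, and 107 and 105 in KO at D7 and 167 and 163 at D15. *Rian* had 177 and 184 TPM in wt at D7, 150 and 153 in wt at D15, 110 and 104 in KO at D7 and 109 and 108 in KO at D15. *Mirg* had 53.0 and 49.8 TPM in wt at D7, 44.4 and 49.2 in wt at D15, 26.1 and 22.7 in KO at D7 and 30.6 and 29.6 in KO at D15. For all 3 genes no KO library reached the lowest wt library of its day. At D7 the log2 differences were -0.92 ± 0.06 for *Meg3*, -0.75 ± 0.04 for *Rian* and -1.05 ± 0.07 for *Mirg* (limma adjusted p = 3.02e-06, 7.01e-07 and 6.72e-06), and *Mirg* alone passed 2-fold, with *Meg3* just short of it. At D15 they were -0.49, -0.48 and -0.62 with adjusted p of at most 0.000189, and none passed 2-fold. Without KO replicate 2 of D7 the value of *Mirg* was -0.95, and it was no longer called.

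*Dio3* was near the test's floor in E8, with 5.37 and 4.45 TPM in wt at D7, 9.70 and 9.06 in wt at D15, 3.51 and 4.05 in KO at D7 and 4.03 and 3.24 in KO at D15. Its groups did not overlap within a day, and it was lower in KO by 1.17 at D15 (log2 -1.17 ± 0.11, limma adjusted p = 4.87e-05) and had a difference of -0.30 ± 0.11 at D7. *Rtl1* had 0.612 to 1.02 TPM and was not tested. In all, 2 of 5 members were called at D7, *Dlk1* higher and *Mirg* lower (17.5% of the 12452 genes tested were called), and 2 of 5 at D15, *Dlk1* higher and *Dio3* lower (10.7%). Between D7 and D15 limma called 0 of 5 members in wt (1.41% of genes), where 3 had an unadjusted p under 0.05, and 0 of 5 in KO (6.11%), where 2 did. The size of the KO difference was called as different between days for 0 of 5 (7.25%), where 4 had an unadjusted p under 0.05. Over all genes the median difference of KO from wt in E8 was 0.10 at D7 and 0.09 at D15 (log2).

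**Figure D3:**
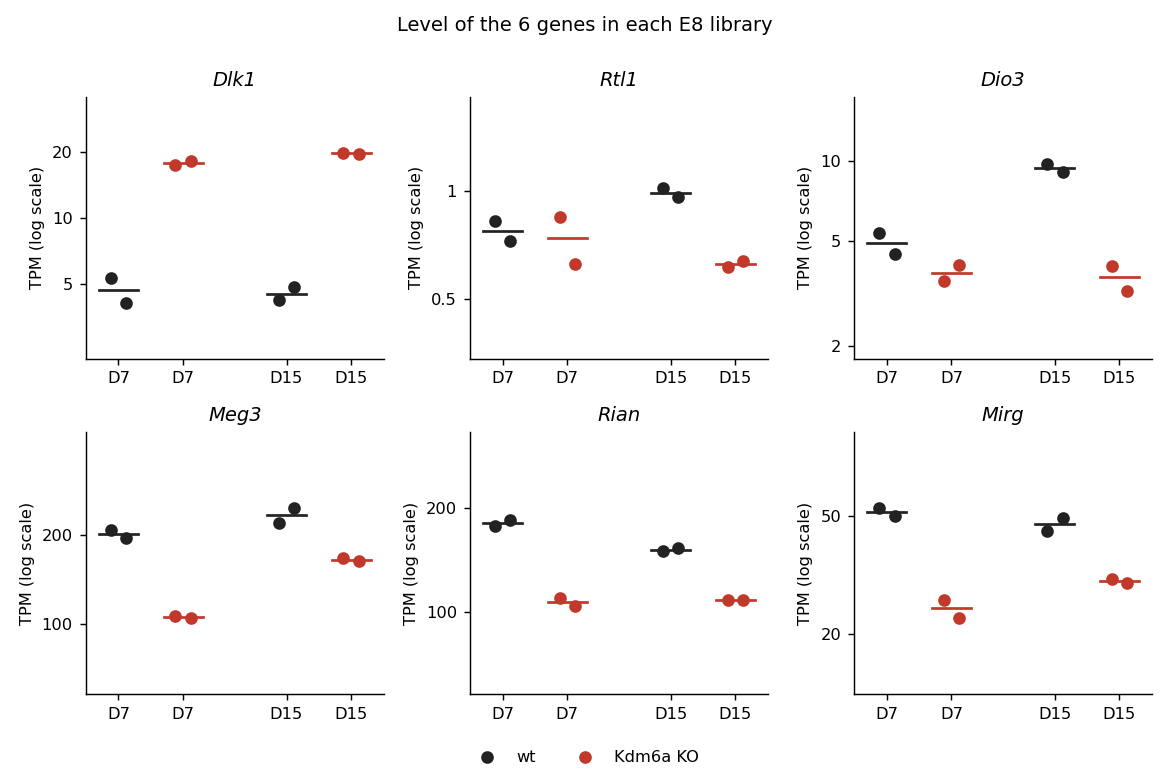
Level of each of the 6 genes in TPM (log scale) in each E8 library, with points for libraries and bars for the mean of 2 libraries. *Dlk1* was at 17.5 to 19.8 TPM in KO and at most 5.30 in wt, while *Meg3*, *Rian* and *Mirg* were lower in KO on both days.

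*Meg3*, *Rian* and *Mirg* were read mainly from *cast* in E8 too. After rescaling, BL6 made up 22.2% to 27.3% of *Meg3* in wt and 15.2% to 23.5% in KO, and 26.3% to 31.5% of *Rian* in wt and 23.5% to 27.0% in KO. *Mirg* had 20.2% to 24.2% in wt and 18.9% to 21.9% in KO. In KO these ranges lay below those in wt or overlapped them, while that of chromosome 12 went up, from 38.8% to 39.7% in wt to 66.5% to 67.2% in KO. Chromosome 19 had a lower BL6 share in KO, with 37.2% against 51.4% in wt at D7 (means of 2 libraries). The depth of these shares is unknown, so no interval is given.

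**Figure D4:**
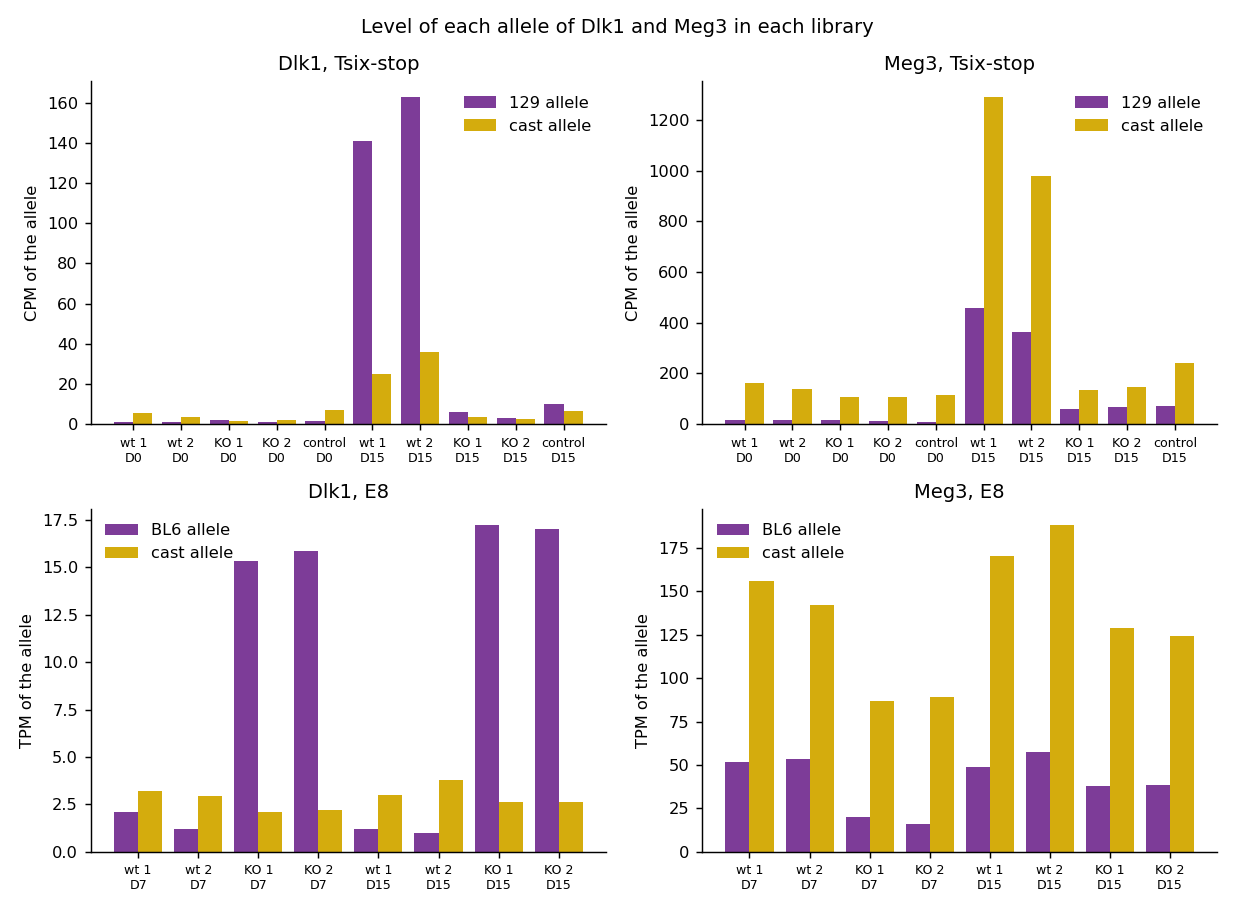
Level of each allele of *Dlk1* and *Meg3* in each library, in CPM for *Tsix*-stop and TPM for E8. *Dlk1* was mainly from strain-129 in *Tsix*-stop wt at D15 and mainly from BL6 in E8 KO, while *Meg3* was mainly from *cast* in every library.

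**Figure D5:**
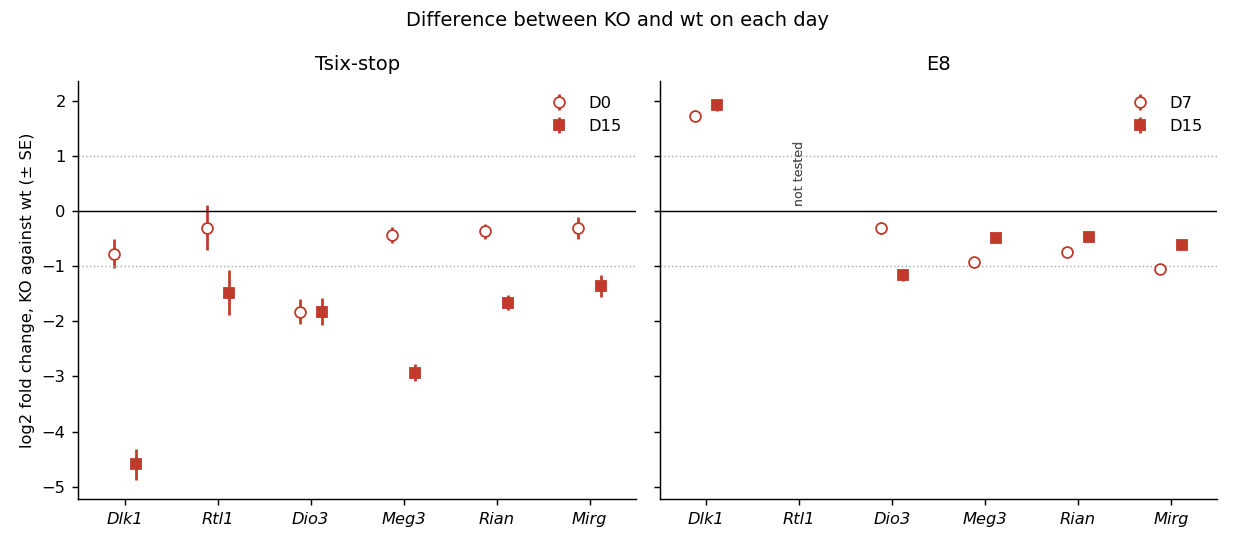
Log2 fold change of KO against wt for the 6 genes in *Tsix*-stop (D0 and D15) and E8 (D7 and D15), with SE bars, dotted lines at 2-fold and *Rtl1* not tested in E8. *Dlk1* was at -4.59 in *Tsix*-stop and at 1.91 in E8 at D15.

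The RNA levels of cell type markers differed between the groups as well. The summed level of 14 fibroblast markers was 116 to 154 CPM in all *Tsix*-stop libraries at D0, and at D15 7223 and 6702 in wt, 674 and 809 in KO and 430 for the CRISPR control. That of 12 visceral endoderm and liver markers was 514 and 528 CPM in wt at D15, 40.4 and 24.2 in KO and 23.0 in the control. At D15, 13 of 14 tested fibroblast markers and 9 of 10 tested endoderm markers were called lower in KO, with medians of -3.17 and -3.19 (log2) against 0.01 over all genes. Of 7 cardiac muscle markers tested 6 were called lower, while 2 of 10 pluripotency markers and 2 of 4 neuron markers were called higher. Of 6 endothelial and 2 skeletal muscle markers tested 2 and 1 were lower. Over all genes 10.9% were called lower at D15 and 14.8% in either direction. In E8, 11 of 11 endoderm markers were called higher in KO on both days, with sums of 9.60 to 17.1 TPM in wt, 1244 and 1245 in KO at D7 and 279 and 278 at D15. Of 11 fibroblast markers tested in E8, 8 were called higher and 1 lower at D7, and 9 higher and 1 lower at D15. Of all E8 genes 17.5% were called at D7 and 10.7% at D15, in either direction. The summed pluripotency markers of E8 were 13583 to 18043 TPM in wt and 4782 to 8184 in KO. At D7 the sums of the cardiac, endothelial and neuron markers were also lower in E8 KO, at 13.3 and 14.2 against 30.4 and 28.2, 45.7 and 44.9 against 83.1 and 79.4, and 161 in both against 272 and 274 TPM. At D15 the neuron sums were again lower in KO, while the cardiac and endothelial sums of KO and wt overlapped. The skeletal muscle sum was higher in E8 KO, at 27.6 and 27.7 TPM against 2.51 and 2.16 at D7. At D15 it was 16.8 and 17.8 TPM against 1.33 and 1.68. *Dlk1* and *Meg3* are known from embryonic mesenchyme and liver. The *Tsix*-stop control at D15 had more *Dlk1* than either KO library, with lower fibroblast and endoderm sums and a higher skeletal muscle sum. In E8 KO the endoderm and skeletal muscle sums were lower at D15 than at D7, and the *Dlk1* values were 17.5 to 18.1 and then 19.7 to 19.8 TPM. *Meg3* was lower in E8 KO, where the fibroblast, endoderm and skeletal muscle sums were higher and the pluripotency and neuron sums lower. The part of cell composition in these differences was not tested. In bulk RNA, fewer cells of a type and less RNA per cell cannot be told apart.

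Other imprinted genes moved with the members in part. Of 13 paternally expressed genes tested outside the domain, 6 were called lower in *Tsix*-stop KO at D15 and 0 higher (median log2 -0.41), and of 7 maternally expressed ones 4 lower and 0 higher (median -1.23). DESeq2 gave the same counts. Over all genes edgeR called 10.9% lower at D15 and 14.8% in either direction. *Igf2*, the fetal growth factor, had 1170 and 1003 CPM in wt at D15 and 46.2 and 35.2 in KO (log2 -4.74 ± 0.20, edgeR adjusted p = 2.72e-05), and *Plagl1*, a transcription factor of the imprinted genes, 493 and 390 against 43.2 and 36.7. In E8 7 of 13 paternally expressed genes were called higher in KO at D15 and 0 lower (median 1.57 beside 0.09 over all genes), *Igf2* among them with 2.00 and 1.99 TPM in wt and 322 and 330 in KO. Of all E8 genes 10.7% were called at D15, in either direction. Counts of the maternally expressed genes called in E8 are not reported here. *Dlk1* and *Igf2* thus had the same direction in each line. In contrast to the non-coding RNAs of the domain, most of these genes were read from both chromosomes in *Tsix*-stop wt, where 12 of 16 with at least 20 SNP reads in each library had 30% to 70% of their reads from strain-129 in all 4 libraries. Those outside this range were *Asb4*, with a share as low as 4.76%, *Igf2*, *Sgce* and *Usp29*. *H19*, maternal in mice, had 46.0% to 49.7% from strain-129 in *Tsix*-stop wt. In E8 its BL6 share was 54.0% to 57.3% in wt and 1.65% to 3.80% in KO. In E8 wt fewer of the genes with at least 2.5 TPM in each library kept a BL6 share of 30% to 70%. These were 3 of 6 maternally and 5 of 10 paternally expressed ones, so the contrast was not seen to the same extent there. The shares were not read against the chromosome of each gene.

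Genes that keep imprints, and the pathways in which *Dlk1* and *Dio3* act, were also counted. Of 18 genes of imprint upkeep, with a median of -0.17 (log2), 3 were called lower in *Tsix*-stop KO at D0, *Dnmt3a* and *Dnmt3l*, which place new DNA methylation, and *Dppa3*, which protects methylation in the zygote. *Dnmt3l* had 41.8 and 49.9 CPM in wt and 7.44 and 17.3 in KO at D0 (log2 -1.89 ± 0.32, edgeR adjusted p = 0.0087), and 6.34 in the CRISPR control. At D15 1 of 18 was called, *Dppa3*, higher in KO with 41.2 and 52.4 CPM against 16.8 and 17.6, while the CRISPR control had 74.5. These 3 and 1 of 18 stand beside 8.03% and 14.8% of all genes. In E8 *Tet1*, which oxidizes methylated cytosine, was lower in KO on both days with 29.2 and 29.4 TPM against 60.0 and 60.6 at D15. It was joined by *Dppa3* at D7 and *Dnmt3a* at D15, so 2 of 18 were called on each day, beside 17.5% and 10.7% of all genes.

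Of 14 Notch pathway genes tested in *Tsix*-stop, 0 were called at D0 by edgeR and by DESeq2, where 3 had an unadjusted p under 0.05, and 2 at D15, with a median of -0.41 (log2). Over all genes 8.03% were called at D0 and 14.8% at D15, so the count at D15 was near that share. The 2 called at D15 were the ligand *Jag1*, with 41.8 and 36.1 CPM in wt and 11.95 and 19.2 in KO, and *Dlk2*, the closest relative of *Dlk1*, with 6.32 and 7.08 against 1.496 and 2.65. The CRISPR control had 11.4 CPM of *Jag1*, below both KO libraries, and 7.44 of *Dlk2*, above both wt libraries. In E8 3 of 15 were called at D7 and 6 of 15 at D15, beside 17.5% and 10.7% of all genes. At D15 *Notch4* and *Lfng* were lower in KO, and *Dll3*, *Nrarp* and the Notch targets *Hey1* and *Hey2* were higher. At D7 *Dll3* was lower in KO. Among the thyroid hormone genes, the receptor *Thra* was called lower in *Tsix*-stop KO at D15, with 43.8 and 47.8 CPM in wt and 9.88 and 11.1 in KO. *Crym*, which binds the hormone, was called higher at D0, with 5.37 and 7.68 CPM in KO against 2.42 and 2.77 in wt. The CRISPR control had 7.42 CPM of *Crym*, inside the KO range. In E8 *Thrsp*, a gene that responds to the hormone, was called lower in KO at D15, with 3.24 and 3.41 TPM in wt and 1.01 and 0.916 in KO.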

How the data were processed

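RNA-seq values of 18 libraries were used. For *Tsix*-stop the authors deposited estimated counts of genes, not normalized, and numbers of reads with strain-129 and *cast* SNPs. For E8 the authors deposited TPM, in which each column, those of the alleles included, sums to the same total. Per the methods, 75 bp single-end reads were mapped to mm10-based pseudo-genomes with bowtie2, keeping unique reads with MAPQ of at least 30, and TopHat was used for diploid levels. The submitters' processing notes name TopHat2 2.1.1 and Bowtie2 2.4.5. The meaning of the columns was read from their names. Counts (7.10% not whole) were rounded.

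The *Tsix*-stop wt and KO libraries were fitted together with edgeR 4.0.16 (quasi-likelihood, TMM factors 0.927 to 1.06, at least 2.5 CPM in 2 libraries, 13121 genes), and the strain-129 to *cast* ratio likewise for genes with a mean of 20 SNP reads. E8 was fitted with limma 3.58.1 on log2(TPM + 1). *Tsix*-stop TPM was computed from union exons of GENCODE. *Tsix*-stop replicates differed beyond sampling noise. Where nothing says that replicates came from separate cultures, p-values measure only the spread between these libraries. Intervals cover counting error only. The steps were tested on simulated data. Members and lists (flanking genes, imprint upkeep, Notch, thyroid hormone, other imprinted genes, cell markers) were chosen with earlier results of these data known. The genes named are the 6 members, rows of the domain with a count, flanking genes, and list genes called without overlap of libraries. *H19*, *Igf2*, *Plagl1*, *Pou5f1* and *Kdm6a* were named after their values were seen. Alternatives were DESeq2 1.42.0, other scalings and filters, other count columns, a replicate block and leaving out libraries. Counts over the thyroid hormone list are not reported here.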

Additional observations from a re-analysis of the deposited data

Results flagged for a closer look

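The KO difference of 4 members in *Tsix*-stop was not the same at D0 and D15 by the test of the interaction (edgeR, log2 values, 2 libraries in each group). It was -3.82 for *Dlk1*, -2.49 for *Meg3*, -1.29 for *Rian* and -1.04 for *Mirg*, with adjusted p of 0.000728, 0.000453, 0.00352 and 0.029. All 4 genes rose in wt by more than in KO, and the CRISPR control at D15 was below wt for all 4 genes. Counting the control as wt ended all 4 calls.

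*Dlk1* differed between KO and wt in opposite directions in the 2 lines at D15. Both *Tsix*-stop KO libraries were below both wt libraries (log2 -4.59), and both E8 KO libraries were above both wt libraries (log2 1.91). The difference between the lines was not tested, since the tables hold counts in *Tsix*-stop and only TPM in E8. The summed fibroblast markers were lower in KO in *Tsix*-stop and higher in KO in E8, and their part in the difference was not tested. With 2 libraries in each group, no library could be tested as an outlier.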

How the results depend on the processing

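Of 201 recounts of the members called over 14 comparisons, 192 were within 1.5 times the first count, and 9 were not. Of 1084 values of single members, 1022 kept direction and call, 24 lost a call, 7 gained a call and 31 changed sign, none of the latter with a call before or after. Counting the CRISPR control as wt gave 0 members called between KO and wt at D0, 0 for the interaction and 1 for KO between days, in place of 1, 4 and 2. Quantile normalization gave 1 in place of 0 for the E8 interaction (*Dio3*, log2 -1.04). *Meg3* in E8 at D7, not called at -0.92, was called at -1.04 with quantile normalization, and at -1.01 both without rows of short RNAs and after subtracting the chromosome 12 median, settings chosen after seeing the data. The causes were not tested. Subtracting the median of chromosome 12 gave 0 in place of 1 for the allele ratio at D0, and turned the ratio of KO to wt for *Dio3*, *Meg3*, *Rian* and *Mirg* at D0 to -0.70, -0.72, -0.69 and -0.79 and for *Meg3* and *Rian* at D15 to -0.51 and -0.43.

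Leaving out 1 library at a time gave 1 to 2 members called for KO against wt at D0, 5 to 6 at D15, 1 to 2 for KO between days, 3 to 5 for the interaction, 1 to 2 in E8 at D7, and 0 to 1 and 1 to 1 for the allele ratio at D0 and D15. *Dlk1* was called at D0 without wt D0 replicate 2 (-1.02). The rise of *Rtl1* in wt was not called without wt D15 replicate 1 (0.81), and its interaction was called without KO D15 replicate 2 (-1.64). The interaction of *Mirg* was not called without wt D0 replicate 2, KO D0 replicate 2 or KO D15 replicate 1 (-0.86, -0.94 and -0.86). For the allele ratio between days in KO, *Dlk1* was called without KO D0 replicate 1 (1.66), *Dio3* was not called without KO D15 replicate 1 (2.24), and neither was *Mirg* without replicate 2 of KO at D0 or D15 (0.74 and 0.91). Uncalled values that crossed 0 were those of *Rtl1* at D0 (-0.68 to 0.0037) and between days in KO (-0.48 to 0.37), *Rian* and *Mirg* between days in KO (-0.015 to 0.034 and -0.14 to 0.23), *Dio3* for the interaction (-0.27 to 0.35), *Dlk1* between days in E8 wt (-0.19 to 0.11), *Dio3* and *Rian* between days in E8 KO (-0.17 to 0.077 and -0.012 to 0.056), and the allele ratios of *Dio3* and *Mirg* at D15 (-0.65 to 0.062 and -0.16 to 0.11). *Rian* between days in KO was -0.027 without the filter, -0.020 on either genome and -0.089 on the *cast* genome. *Dio3* for the interaction was -0.021 with the filter in 4 libraries and -2.0e-05 on the *cast* genome, and in E8 KO between days 0.023 without rows of short RNAs.

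With no filter 1601 and 2993 of all genes were called at D0 and D15, in place of 1054 and 1942, and 17 and 1104 with the CRISPR control as wt. Replicate numbers were not taken to pair the libraries. Same-numbered wt and KO libraries of *Tsix*-stop deviated with correlations of -0.0024 at D0 and -0.14 at D15, those of the 2 days with 0.23 in KO and -0.21 in wt, and the labels do not say that a number marks a clone. A replicate block left 1 and 6 members called at D0 and D15, as without it, and changed no member's call. A crossed pairing, chosen after seeing the data, gave 1032 and 1977 genes, with 1 and 6 members. *Rtl1* had no value where 2.5 CPM were asked of 4 libraries. Depth limits *Rtl1* and the shares of *Dio3* at D15.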

Other observations

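Among 11193 tested genes with a mean of at least 5 CPM over the 10 *Tsix*-stop libraries, the profile of *Dlk1* over these libraries was most like those of *Pitx1*, a hindlimb transcription factor (Pearson r = 0.980 on the log scale), *Rbp4*, the carrier of retinol (0.977), and *Meg3* (0.974). Over the 8 E8 libraries r was 0.993, 0.933 and -0.788, so *Meg3* was not like *Dlk1* there. The genes most like *Meg3* were *Igdcc4* (0.985), *Unc5c* (0.985) and *Klhdc8b* (0.983), with -0.884, -0.664 and -0.550 in E8. These values describe libraries that fall into few groups and carry no test.

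Some imprinted genes outside the domain had other allele shares in E8 KO than in E8 wt. These shares were not read against the chromosome of each gene. *Mest*, paternally expressed in mice, had 45.3% to 53.4% of its rescaled TPM from BL6 in wt and at least 99.0% in KO. *H19* went the other way, from 54.0% to 57.3% in wt to 1.65% to 3.80% in KO. In *Tsix*-stop *H19* stayed near equal shares, with 46.0% to 54.1% from strain-129 over all 10 libraries, and *Mest* had 51.9% to 66.5%.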
